A study of Mus musculus with 36 samples.

Results

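Day 3 of hypoxia was measured on 4 spotted 2-colour cDNA arrays, replicates 1 to 4, out of 36 arrays over 9 days. They were taken as all arrays whose label gives 3 days of hypoxia, and no measured value entered the choice. The hypoxic group was BALB/c mice held at a pressure of 0.5 atm for 3 days, and the control group was BALB/c mice of the same time point. Whole lungs of 5 hypoxic and of 5 control mice were pooled separately, and the labels give neither age nor sex. The other hypoxia days were 1, 7, 14 and 21, and the recovery days, after 21 days of hypoxia, were 22, 24, 28 and 35. Each of those days was compared with a control pool of its own. Every value below is a log2 ratio of hypoxic to control lung, so it is a difference between the pools and not a level. A positive value is likely to mean higher in hypoxic lung: in the protocol, hypoxic cDNA and Cy5 each come first in their lists, and no dye swap is recorded.

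Low oxygen narrows the small pulmonary arteries, and when it lasts their walls thicken as smooth muscle cells, fibroblasts and endothelial cells divide and lay down matrix. Collagens, elastic fibres and tenascin C form that matrix, while the transforming growth factor beta (TGF-beta) and bone morphogenetic protein (BMP) pathways govern its deposition and the growth of the vessel wall. Reduced BMP receptor signalling is a known cause of heritable pulmonary arterial hypertension. Day 3 falls early in this course, and the comparison with control asks which genes had changed by then.

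Between 14261 and 14719 of 15388 spots had a value on each of the 4 arrays. Precision is limited by there being 4. Spots with 1 gene symbol were averaged by gene on each array, and the other spots were kept as unnamed features. As far as the labels say, hypoxic and control RNA each came from 1 pool. The p-values therefore cover variation among arrays of the same pools, possibly all of it technical, and not variation among mice. Replicates 1 and 2 correlated at r = 0.67 across features and replicates 3 and 4 at r = 0.71. Across these pairs r lay between -0.15 and 0.26. Features are not independent replicates, and no label says what sets the pairs apart. For each gene list the number of members that passed in each pair in one direction is therefore given beside the count on the mean of 4 arrays, and a named gene that passed on the mean but not in a pair is said to have done so. Ratios carry no level, so the tissue could not be checked by marker levels. Calls were made with limma at a Benjamini-Hochberg adjusted p of 0.05 over all features tested.

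At day 3 genes of collagen fibres and of cell division were higher in hypoxic lung, and S100a9, a calcium-binding protein of neutrophils, had the lowest value of any named gene. In all, 2842 of 12214 features passed (23.3 percent): 1626 higher (13.3 percent) and 1216 lower (9.96 percent). The counts of each gene list below stand beside these shares over all features. The median absolute log2 ratio of the passing features was 0.33, and the median over all features was 0.01. In each replicate pair alone, 1124 of 10989 features passed in one direction (10.2 percent), 573 higher (5.21 percent) and 551 lower (5.01 percent). With the replicate pair as a random block, 1532 features passed, 885 higher and 647 lower. The 30 named genes with the largest means among those that passed with 1 sign on all arrays also passed in each pair and with the random block. They were chosen on these same arrays, so this is not separate support. The 4 arrays taken alone, without the other days to estimate the spread, gave 103 features and 18 of those 30 genes.

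**Figure D1:**
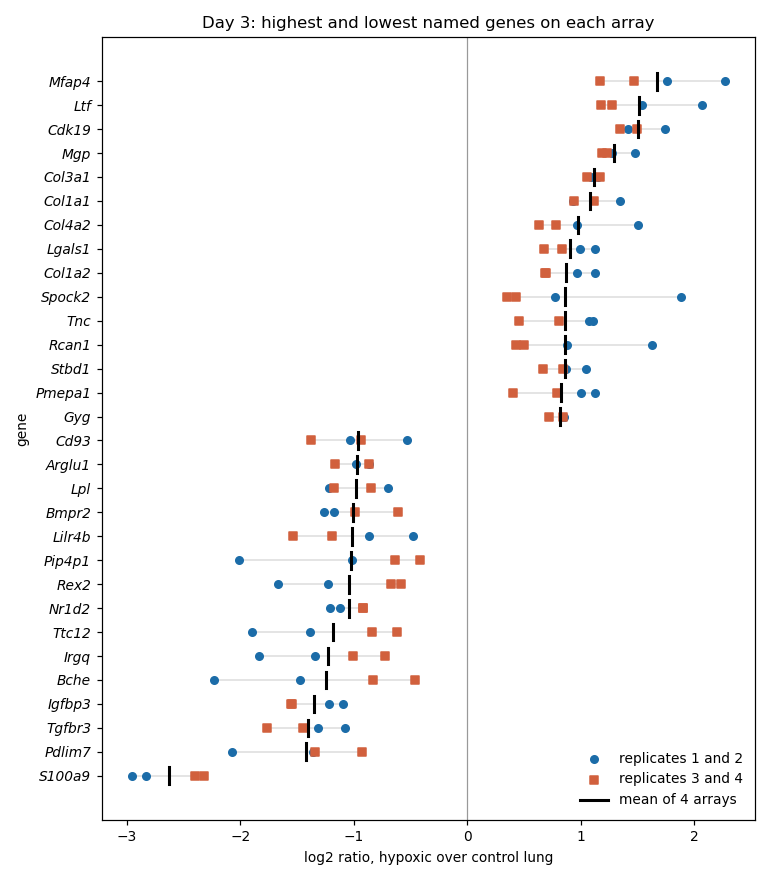
Log2 ratios of hypoxic to control lung on the 4 day 3 arrays for 30 named genes. They are the 15 highest and 15 lowest among those that passed with 1 sign on all 4 arrays. Circles are replicates 1 and 2, squares replicates 3 and 4, and black bars the mean of 4 arrays. By that choice all arrays lie on one side of 0. S100a9, at a mean of -2.63, lies apart from the others.

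Collagen genes rose together. Of 18 measured genes of collagens and collagen processing, 10 passed as higher (55.6 percent) and none as lower, also at an unadjusted p under 0.05 in limma. The median of the 18 was 0.45, and 9 of 17 measured in both pairs passed as higher in each. Col3a1, which encodes the chain of type III collagen, a fibril of vessel walls, stood at 1.09, 1.15, 1.05 and 1.17 in replicates 1 to 4. These 4 values were close together, and their mean of 1.11 ± 0.05 (SD, n = 4) is a 2.17-fold rise (adjusted p = 4.2e-16). The 4 spots of Col3a1 did not agree, with day 3 means from 0.14 to 1.57.

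The chains of type I collagen, the main fibril of scar and adventitia, were also higher. Col1a1 stood at 0.93, 1.34, 0.93 and 1.12, with a mean of 1.08 ± 0.20 (adjusted p = 1.5e-06). Col1a2 stood at 0.96, 1.12, 0.69 and 0.68, with a mean of 0.86 ± 0.22 (adjusted p = 7.9e-08). In Col1a2 both arrays of the first pair lay above both of the second, though the pairs did not differ by test (adjusted p = 0.080). Col4a2, a chain of the basement membrane collagen under endothelium and around smooth muscle, stood at 0.97, 1.50, 0.63 and 0.78. Its mean was 0.97 ± 0.38, a 1.96-fold rise, and the first pair exceeded the second by 0.53 (adjusted p = 0.044).

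Other members of the group handle collagen outside or inside the cell. Sparc, a collagen-binding matricellular protein, stood at 1.00, 1.05, 0.42 and 0.52 with a mean of 0.75 ± 0.32, and its 3 spots ranged from 0.12 to 1.34. Serpinh1, the collagen chaperone, had a mean of 0.67 ± 0.06, and Pcolce, an enhancer of procollagen cleavage, a mean of 0.74 ± 0.42; both were named after their values were seen. Col5a2, which did not pass, ranged from -1.49 to 0.41 over the 4 arrays.

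Among 23 measured genes of elastic fibres, matricellular proteins and proteoglycans, 10 rose and 2 fell, with a median of 0.15. In each pair, 5 of 20 passed as higher and 1 as lower. Mfap4, a microfibril protein bound to elastic fibres, had the highest mean of any named gene at day 3. It stood at 1.76, 2.27, 1.17 and 1.47, a mean of 1.67 ± 0.47 and a 3.18-fold rise (adjusted p = 2.8e-10). The first pair was higher than the second by 0.70 (adjusted p = 0.0049), and all 4 arrays were high. Mgp, a matrix protein that holds back calcification of vessel walls, stood at 1.28, 1.47, 1.18 and 1.23, with a mean of 1.29 ± 0.13 and no difference between pairs that passed (0.17, adjusted p = 0.24).

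Tnc, which encodes tenascin C, a matrix protein of remodelled pulmonary arteries, stood at 1.07, 1.10, 0.81 and 0.45. Its mean was 0.86 ± 0.30, and the pairs differed by 0.46 (adjusted p = 0.024). Fn1, fibronectin, had a mean of 0.73 ± 0.37, a 1.66-fold rise. Decorin went the other way: Dcn, a small proteoglycan that coats collagen fibrils and was named after its values were seen, stood at -0.78, -0.81, -1.35 and -0.92. Matrix proteases and their inhibitors gave 3 higher (14.3 percent) and 1 lower (4.76 percent) of 21, and 1 in each direction in each pair. Adamts1, a secreted protease of proteoglycans, rose by 0.44 ± 0.11, and Plaur, the urokinase receptor, by 0.23 ± 0.11. Plaur did not pass in replicates 3 and 4 (adjusted p = 0.12) or with the random block (adjusted p = 0.067). Timp3, an inhibitor of metalloproteinases, fell to -0.35 ± 0.15.

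Fibroblast, smooth muscle and endothelial markers stand beside the matrix genes, because these cells make that matrix. In whole lung, a change in the share of a cell type and a change in RNA per cell cannot be told apart. Of 21 measured fibroblast and pericyte genes, 7 rose (33.3 percent) and 2 fell (9.52 percent), with a median of 0.17. The 7 that rose did so in each pair and the 2 that fell did not. Dcn, which fell in each pair, was counted with the proteoglycans and not in this list. The list median was 0.31 in replicates 1 and 2 and -0.06 in replicates 3 and 4, so its sign turned between pairs. The genes that rose included Mest, an imprinted gene of growing mesenchyme, at 0.65 ± 0.23, Igf1, a growth factor, at 0.52 ± 0.12, and the chemokine Cxcl12 at 0.52 ± 0.25. The part of these markers in the rise of the collagens was not tested.

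Smooth muscle contractile genes were mostly higher, 9 rising and 1 falling of 16 measured, with a median of 0.35. In each pair, 4 of 15 passed as higher and 1 as lower. Flna, filamin A, an actin cross-linker, stood at 0.93, 0.97, 0.34 and 0.29, with a mean of 0.63 ± 0.37. The first pair exceeded the second by 0.63 (adjusted p = 0.0019), yet each pair passed. Tpm2, a tropomyosin, rose by 0.49 ± 0.34 and Smtn, smoothelin of contractile smooth muscle, by 0.39 ± 0.21; Smtn did not pass in replicates 3 and 4 (adjusted p = 0.056). The member that fell was Pdlim7, an adaptor of the actin cytoskeleton, at -1.36, -2.07, -0.93 and -1.34. Its mean of -1.43 ± 0.47 is 0.372 of the control level.

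**Figure D2:**
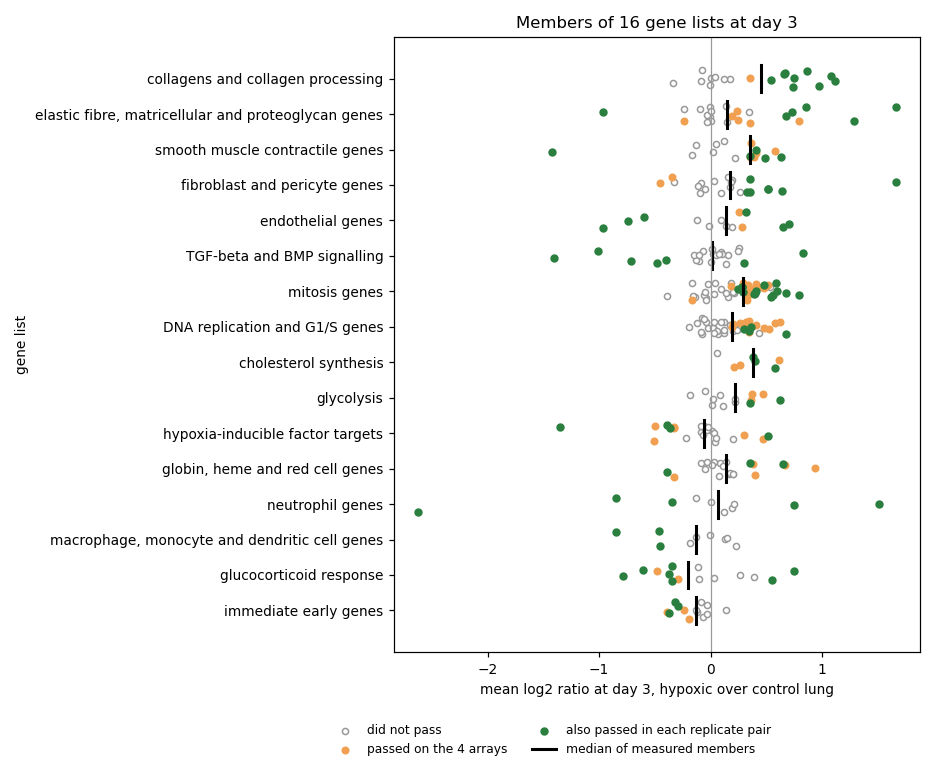
Mean log2 ratio at day 3 for each measured member of 16 gene lists; open points did not pass, orange points passed on the 4 arrays, green points also passed in each replicate pair, and black bars are list medians. Collagen members that passed lie between 0.36 and 1.11, and the mitosis list has its median at 0.29.

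Endothelial genes were split, 5 higher (38.5 percent) and 3 lower (23.1 percent) of 13, with a median of 0.14. In each pair 3 passed in each direction. Emcn, the sialomucin of capillary and venous endothelium, stood at 0.71, 0.99, 0.55 and 0.34, a mean of 0.65 ± 0.28. Cdh5, the cadherin of endothelial junctions, rose by 0.32 ± 0.13. Lower were Cd93, a lectin-like receptor of endothelial and myeloid cells, at -1.03, -0.53, -1.37 and -0.93, and Ctla2a, a cathepsin inhibitor, at -0.74 ± 0.13. Ednrb, the endothelin B receptor that clears endothelin and releases nitric oxide, stood at -0.72, -0.71, -0.59 and -0.37, with a mean of -0.60 ± 0.16 (adjusted p = 3.6e-07). Genes of vascular tone and pulmonary hypertension gave 4 higher and 7 lower of 25, with a median of -0.12, and in each pair 2 higher and 5 lower of 24.

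Receptors and regulators of TGF-beta and BMP signalling were among the largest falls, while most of the list did not pass. Of 23 measured, 2 rose and 5 fell, and all 7 passed in each pair. The median was 0.01, as for all features. Tgfbr3, betaglycan, a co-receptor that presents TGF-beta to its signalling receptors, stood at -1.08, -1.32, -1.76 and -1.45. Its mean of -1.40 ± 0.29 is 0.379 of the control level (adjusted p = 1.3e-06). Bmpr2, the type II BMP receptor, stood at -1.26, -1.17, -0.99 and -0.61, a mean of -1.01 ± 0.29 and 0.497 of control (adjusted p = 2.7e-06). The fall was deeper in replicates 1 and 2 by 0.42 (adjusted p = 0.023).

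Bmpr1a, a type I BMP receptor, fell to -0.40 ± 0.20, and its 2 spots had means of -0.60 and -0.20. Smurf2, a ubiquitin ligase that removes receptors and Smad proteins, stood at -0.75, -0.64, -0.75 and -0.73, close together on all arrays (mean -0.72 ± 0.05). Id2, a transcription target of BMP signals, was lower as well, at -0.48. Pmepa1, an inhibitor that TGF-beta itself induces, rose at 1.00, 1.13, 0.40 and 0.79, with a mean of 0.83 ± 0.32. Tgfb2, a ligand, was the other member that rose, at 0.30; it and Id2 were named after their values were seen. The other ligands and receptors measured, among them Tgfbr1 at -0.11, Tgfbr2 at 0.15, Bmp2 at 0.10 and Bmp4 at 0.11, did not pass.

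Many genes of mitosis were higher in hypoxic lung at day 3. Of 48 measured members 27 rose (56.2 percent) and 1 fell, with a median of 0.29, and 14 of 44 rose in each pair. Cdk1, the kinase that drives entry into mitosis, stood at 1.07, 0.71, 0.74 and 0.67, a mean of 0.80 ± 0.18 and a 1.74-fold rise (adjusted p = 5.3e-07). Ccnb2, cyclin B2, a partner of Cdk1, stood at 1.01, 1.07, 0.40 and 0.24, with a mean of 0.68 ± 0.42. It rose in each pair, but by 0.72 more in the first (adjusted p = 2.1e-04). Top2a, the topoisomerase that untangles chromosomes, stood at 0.58, 0.78, 0.63 and 0.41, a mean of 0.60 ± 0.15, and its 2 spots had means of 0.29 and 0.92. Anln, anillin of the contractile ring, rose by 0.55 ± 0.31. Not all proliferation genes moved: Mki67, the source of the Ki-67 antigen, stood at -0.05 ± 0.18 and Aurkb, a kinase of chromosome separation, at -0.39 ± 0.33, and neither passed. The one member that fell was Smc4, a condensin subunit, at -0.17, and it did not pass in replicates 3 and 4 (adjusted p = 0.25). These 3 were named after their values were seen.

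The 250 bases before the start of Cdk1, Ccnb2 and Top2a are shown because these genes rose together in both pairs and because promoters of mitosis genes are known for CCAAT boxes and cell cycle homology elements. The sequences are those of RefSeq on GRCm38.p6, each 5′ to 3′ on the strand of its gene, which for each is the minus strand of the chromosome. Capitals mark CCAAT or its reverse complement ATTGG, and TTTGAA or its reverse complement TTCAAA, the letters of the cell cycle homology element. The marked matches do not overlap. The windows are chr10:69352913-69353162 for Cdk1, chr9:70421555-70421804 for Ccnb2 and chr11:99024190-99024439 for Top2a.
Cdk1: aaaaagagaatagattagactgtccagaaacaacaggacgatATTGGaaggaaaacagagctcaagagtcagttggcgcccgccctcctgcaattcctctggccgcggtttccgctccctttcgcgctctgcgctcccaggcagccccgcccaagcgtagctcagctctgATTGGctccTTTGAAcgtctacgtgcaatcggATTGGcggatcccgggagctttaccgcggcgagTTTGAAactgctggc
Ccnb2: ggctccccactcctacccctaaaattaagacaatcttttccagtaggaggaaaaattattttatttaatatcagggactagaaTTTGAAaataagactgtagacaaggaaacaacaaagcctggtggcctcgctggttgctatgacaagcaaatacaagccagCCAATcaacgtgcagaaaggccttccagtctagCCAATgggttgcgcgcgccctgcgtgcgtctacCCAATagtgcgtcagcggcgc
Top2a: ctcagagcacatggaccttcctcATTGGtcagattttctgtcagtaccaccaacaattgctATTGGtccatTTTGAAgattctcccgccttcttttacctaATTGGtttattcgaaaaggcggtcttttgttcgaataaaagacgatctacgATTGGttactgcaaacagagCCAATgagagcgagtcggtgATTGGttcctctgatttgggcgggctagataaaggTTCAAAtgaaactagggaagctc

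Cdk1 and Ccnb2 each held 3 CCAAT matches and Top2a held 6, while TTTGAA matched at 2 places in Cdk1 and Top2a and at 1 place in Ccnb2. Over both strands, CCAAT was found in the window of 34.5 percent of 27025 genes and TTTGAA in 16.3 percent. Of the 48 measured mitosis genes 40 had a window, and 30 held CCAAT and 17 held TTTGAA. Among the 24 that rose at day 3 and had a window, 18 held CCAAT (75.0 percent) and 9 held TTTGAA (37.5 percent). Among the 16 that did not rise, 12 held CCAAT (75.0 percent) and 8 held TTTGAA (50 percent). Both motifs were found in 9 of the 24 (37.5 percent), in 7 of the 16 (43.8 percent) and in 5.73 percent of all genes. At least 2 CCAAT matches were found in 14 of the 24 that rose (58.3 percent), in 6 of the 16 that did not (37.5 percent) and in 10.5 percent of all genes. These shares were not tested. A match is a run of letters, not a bound site.

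Genes of DNA replication and entry into S phase gave 16 higher of 40 (40.0 percent) and none lower, also at an unadjusted p under 0.05 in limma, with a median of 0.20. Only 4 of 35 rose in each pair. Lig1, the DNA ligase of replication, stood at 0.88, 0.83, 0.35 and 0.66, a mean of 0.68 ± 0.24. Mcm2, a subunit of the replicative helicase, rose by 0.34 ± 0.09, Uhrf1, which maintains DNA methylation at the fork, by 0.36 ± 0.09, and Ccnd3, cyclin D3, by 0.53 ± 0.27. Ccnd3 was at 0.72 in the first pair and at 0.34 in the second, where it did not pass (adjusted p = 0.070). With the random block the list had 7 members higher, and the mitosis list 16. Among inhibitors of the cell cycle and targets of p53, 3 rose and 3 fell of 13, and 1 in each direction did so in each pair. Cdkn2c, an inhibitor of Cdk4 and Cdk6, rose by 0.49 ± 0.14, and Ccng1, a p53 target, fell to -0.41 ± 0.12 with spot means from -0.77 to 0.02.

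Neutrophil genes changed in both directions, and the macrophage genes that passed were lower. S100a9, a subunit of calprotectin and an abundant protein of neutrophils, stood at -2.83, -2.96, -2.32 and -2.40. Its mean of -2.63 ± 0.32 is 0.162 of the control level (adjusted p = 4.1e-18), and all 4 arrays were low. Ltf, lactoferrin of neutrophil granules and of airway glands, was raised at 1.54, 2.07, 1.28 and 1.17, a mean of 1.52 ± 0.40 and a 2.86-fold rise. Lcn2, lipocalin 2 of the same sources, stood at 0.85, 1.26, 0.49 and 0.39, a mean of 0.75 ± 0.39. The neutrophil list as a whole gave 2 higher and 3 lower of 10, all 5 in each pair, with a median of 0.07.

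Of 9 measured genes of macrophages, monocytes and dendritic cells, 3 fell, each in both pairs, and none rose, also at an unadjusted p under 0.05 in limma. The median was -0.13, with 0.15 in the first pair and -0.15 in the second. Cybb, the membrane subunit of the phagocyte oxidase, stood at -0.89, -1.06, -0.68 and -0.75, a mean of -0.84 ± 0.17. Fcgr3, a low-affinity receptor for immunoglobulin G, fell to -0.45 ± 0.11, and Fcer1g, the signalling chain it shares with other Fc receptors, to -0.46 ± 0.16. Lilr4b, an inhibitory receptor of myeloid cells, stood at -0.86, -0.48, -1.53 and -1.20, deeper in the second pair by 0.69 (adjusted p = 0.038). None of 4 T, NK and B cell genes passed in limma, and 1 was lower at an unadjusted p under 0.05.

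Genes listed as targets of the hypoxia-inducible factors, Hif1a among them, were more often lower than higher. Of 23 measured, 3 rose (13.0 percent) and 7 fell (30.4 percent, beside 9.96 percent lower over all features), with a median of -0.06. In each pair 1 rose and 3 fell, and with the random block 2 rose and 4 fell. Glycolytic enzymes such as Ldha, Aldoa and Pgk1 were not in this list. They were counted under glycolysis, where 5 of 13 rose and none fell, so the balance depends on how the lists were drawn. Hif1a itself stood at -0.15, -0.17, 0.03 and 0.06 and did not pass (adjusted p = 0.60), and Slc2a1, the glucose transporter, stood between -0.21 and 0.27 (adjusted p = 0.64). Igfbp3, a binding protein of insulin-like growth factors, fell on all arrays, at -1.10, -1.22, -1.55 and -1.56, to 0.391 of control. Bnip3 and Bnip3l, mitophagy receptors known as hypoxia targets in many cells, were lower at -0.37 ± 0.04 and -0.40 ± 0.11. Hmox1, heme oxygenase, was at 0.38, 0.77, -0.01 and 0.08: it rose in replicates 1 and 2 (adjusted p = 1.4e-04) and not in replicates 3 and 4 (adjusted p = 0.81).

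Glycolysis gave 5 higher of 13 and none lower, also at an unadjusted p under 0.05 in limma, with a median of 0.22. Of the 13, 2 passed as higher in each pair, and 3 with the random block. Pkm, pyruvate kinase of proliferating tissue and muscle, stood at 0.91, 0.56, 0.54 and 0.49, a mean of 0.62 ± 0.19, though its 3 spots ranged from 0.29 to 0.81. Hk1, hexokinase 1, rose by 0.47 ± 0.26, but was at 0.64 in the first pair and at 0.31 in the second, where it did not pass (adjusted p = 0.067). Ldha, lactate dehydrogenase A, was at 0.67 in the first pair and 0.08 in the second, a difference of 0.59 (adjusted p = 0.0036). Ldha passed on the mean of 4 arrays (adjusted p = 0.037). It did not pass in replicates 3 and 4 (adjusted p = 0.56) or with the random block (adjusted p = 0.096). Gyg and Stbd1, which prime and bind glycogen, were both higher. Gyg stood at 0.84, 0.85, 0.72 and 0.84 and Stbd1 at 0.87, 1.05, 0.85 and 0.66, with no difference between pairs that passed.

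Red cell genes gave 6 higher (28.6 percent) and 2 lower (9.52 percent) of 21, with a median of 0.14. In each pair 2 were higher and 1 lower of 18. Hbb-b1, an adult beta globin, stood at 0.75, 0.85, 0.53 and 0.46, a mean of 0.65 ± 0.18. Hbb-y, an embryonic beta globin whose sequence is close to that of its neighbours, was at 0.40 ± 0.22 and did not pass in replicates 3 and 4 (adjusted p = 0.13). Spots of the globin genes may share signal. Alas2, the first enzyme of heme synthesis in red cell precursors, was at 1.35, 0.33 and 0.32 in replicates 2 to 4 and had no value in replicate 1 (mean 0.67, adjusted p = 0.0051). Replicate 2 was far above the others, and in replicates 3 and 4 alone Alas2 did not pass (adjusted p = 0.071). The amount of blood in the pools was not measured.

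Genes that glucocorticoids induce were mostly lower: 7 fell and 2 rose of 14, with a median of -0.20, and in each pair 5 fell and 2 rose of 13. Klf9, a transcription factor, stood at -0.67, -0.79, -0.88 and -0.82, a mean of -0.79 ± 0.09 (adjusted p = 1.8e-09). Fkbp5, a chaperone of the glucocorticoid receptor, stood at -0.51, -0.21, -0.80 and -0.89, deeper in the second pair by 0.49 (adjusted p = 0.0067). The 2 that rose were Lcn2 and Mt2, a metallothionein that binds zinc. Immediate early genes gave 6 lower and none higher of 13, also at an unadjusted p under 0.05 in limma, and 3 were lower in each pair. Jun stood at -0.32 ± 0.10, Klf6 at -0.30 ± 0.09 and Fos at -0.24 ± 0.02. Fos passed on the 4 arrays (adjusted p = 0.021) and in neither pair alone.

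Of 13 circadian clock genes 1 rose (7.69 percent) and 4 fell (30.8 percent), and in each pair 2 of 12 fell. Nr1d2, a repressor of the clock loop, stood at -1.12, -1.22, -0.92 and -0.92, to 0.485 of control (adjusted p = 2.0e-09), and Tef, a clock output factor, at -0.51 ± 0.34. Arntl, the activator of the loop, spread from -0.72 to 1.43: it was at 0.99 in the first pair and -0.25 in the second, a difference of 1.24 (adjusted p = 0.0047). The time of day at which lungs were taken is not given in the labels.

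Cholesterol synthesis enzymes were higher in 6 of 7, with none lower at an unadjusted p under 0.05 in limma and a median of 0.38; 3 of 6 rose in each pair. Lss, lanosterol synthase, stood at 0.70, 0.70, 0.44 and 0.48, a mean of 0.58 ± 0.14. Sqle, squalene epoxidase, was at 0.40 ± 0.15 and Idi1, an isomerase of the isoprenoid steps, at 0.38 ± 0.11. Lpl, the lipase that releases fatty acids from lipoproteins, stood at -1.22, -0.70, -1.18 and -0.85, and Acadm, of fatty acid oxidation, at -0.43 ± 0.14. Antioxidant genes and metallothioneins gave 3 higher (9.68 percent) and 10 lower (32.3 percent) of 31. In each pair 2 were higher and 3 lower, with the random block 6 were lower, and with 1 array left out 4 to 10 were. Nfe2l2, the master regulator of antioxidant genes, fell to -0.49 ± 0.28, and its target Gclc, of glutathione synthesis, to -0.30 ± 0.06.

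Epithelial genes changed in part. Alveolar type I and II genes gave 5 higher (26.3 percent) and 1 lower (5.26 percent) of 19, with a median of -0.01. In each pair 1 passed in each direction. Muc1, a surface mucin, and the keratins Krt7 and Krt19 rose by 0.54 ± 0.34, 0.49 ± 0.25 and 0.44 ± 0.35. In replicates 3 and 4 Krt7 (adjusted p = 0.063) and Krt19 (adjusted p = 0.20) did not pass, and Krt19 was at 0.68 in the first pair against 0.20 in the second. Slc34a2, the phosphate transporter of type II cells, fell to -0.72 ± 0.15, but its 3 spots ranged from -1.66 to -0.04. Airway and ciliated genes gave 4 higher and 1 lower of 14, all 5 in each pair. Besides Ltf, Rsph1, of the ciliary axoneme, stood at 0.62, 0.96, 0.26 and 0.55, and Agr2, of secretory cells, at 0.49 ± 0.16. Ratios give no level, so whether the defining surfactant markers were abundant could not be read here.

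Oxidative phosphorylation gave 2 higher (3.77 percent) and 6 lower (11.3 percent) of 53, and 1 lower in each pair. Fatty acid and lipid genes gave 3 higher (9.68 percent) and 5 lower (16.1 percent) of 31, and 2 lower in each pair. Cytosolic ribosomal proteins gave 2 higher (2.94 percent) and 4 lower (5.88 percent) of 68, and 1 higher and 3 lower in each pair, among them Rpl5 at -0.40 ± 0.08 and Rps2 at 0.51 ± 0.14. Chaperones gave 5 higher (10.9 percent) and 7 lower (15.2 percent) of 46, and 2 higher and 5 lower in each pair; Dnajb9, an endoplasmic reticulum chaperone, fell to -0.73 ± 0.12, and Bag3 rose by 0.37 ± 0.16. Proteasome and ubiquitin genes gave 5 in each direction of 38 (13.2 percent each). The 5 higher became 0 by limma with arrays scaled to one spread and with the random block, and 0 to 6 with 1 array left out, and 1 lower member was the only one to pass in each pair. Chemokines, cytokines and acute phase genes gave 4 in each direction of 11 (36.4 percent each), and 2 higher and 1 lower of 10 in each pair. Among them were Il18 at -0.36 ± 0.08 and Stat3 at 0.23 ± 0.13, which did not pass in replicates 3 and 4 (adjusted p = 0.068). Interferon and antigen presentation genes gave 1 in each direction of 16, neither of which passed in each pair, and none of 3 cardiac and skeletal muscle genes passed in limma, with 1 lower at an unadjusted p under 0.05.

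Several of the largest changes lay outside the lists. Cdk19, a kinase of the Mediator complex of transcription, stood at 1.41, 1.74, 1.49 and 1.35, a mean of 1.50 ± 0.17 with no difference between pairs that passed (0.16, adjusted p = 0.36). Lgals1, galectin 1, a sugar-binding protein of mesenchyme, stood at 1.12, 1.00, 0.83 and 0.68. Rcan1, an inhibitor of calcineurin, stood at 0.87, 1.62, 0.50 and 0.43, and Spock2, a matrix proteoglycan of lung, at 1.89, 0.77, 0.43 and 0.35. In both genes the first pair lay above the second, by 0.78 (adjusted p = 0.0029) and 0.94 (adjusted p = 0.0021). Among the lower genes, Bche, butyrylcholinesterase, stood at -1.48, -2.23, -0.46 and -0.83, a pair difference of -1.21 (adjusted p = 0.0022). Irgq, Ttc12, Rex2 and Pip4p1 had means of -1.23, -1.19, -1.04 and -1.02. The last 3 of these were lower in the first pair than in the second by test, and for Irgq the difference did not pass (adjusted p = 0.13). Arglu1, a splicing cofactor, stood at -0.99, -0.87, -1.16 and -0.86.

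The replicate pairs disagreed over much of the array. Replicates 1 and 2 alone gave 4130 of 11632 features (35.5 percent), and replicates 3 and 4 alone 3755 of 11647 (32.2 percent). Of 10989 features tested in both, 457 passed in each pair in opposite directions, beside the 1124 in one direction. The 1124 are 28.8 percent of the calls of the first pair and 31.4 percent of those of the second. Over all 10989 features the pairs had the same sign in 51.9 percent. The difference between the pairs passed for 3238 features (29.5 percent), with a median absolute size of 0.58.

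**Figure D3:**
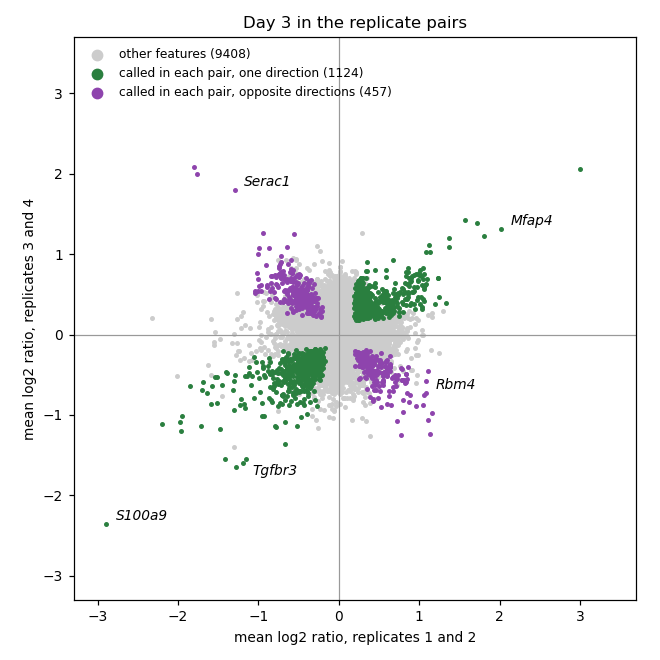
Mean log2 ratio of replicates 3 and 4 against that of replicates 1 and 2 for 10989 features; green points passed in each pair in one direction (1124), purple points in opposite directions (457), grey points are the rest. S100a9, Mfap4 and Tgfbr3 lie along the diagonal, Serac1 and Rbm4 across it.

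Serac1, a mitochondrial lipid remodelling protein, had the largest named pair difference. It stood at -1.08 and -1.51 in replicates 1 and 2 and at 1.47 and 2.13 in replicates 3 and 4, a difference of -3.10 (adjusted p = 4.5e-06). Atp6v0e, a subunit of the vacuolar proton pump, stood at -0.82 and -1.06 against 1.04 and 1.49. Tnfaip2, Pramel6 and Oxsm were also lower in the first pair, by -1.79, -1.70 and -1.60. In the other direction, Ppp2r1b, a scaffold of protein phosphatase 2A, stood at 0.52 and 0.94 against -0.86 and -1.30. Hexdc, Pde2a, a cyclic nucleotide phosphodiesterase, Slc45a4 and Rbm4, a splicing factor, were higher in the first pair by 1.81, 1.77, 1.66 and 1.66. None of these 10 genes passed on the mean of 4 arrays.

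The same pair difference recurred on other days. Across 12368 features, the difference at day 3 correlated with its mean over the other 8 days at r = 0.71, from 0.30 at day 28 to 0.78 at day 7, as a description over features that share arrays and spots. Of the 3238 features with a pair difference at day 3, 2003 (61.9 percent) had the same sign on 7 or 8 of the other days. The same share over all features was not worked out, so how far this count exceeds it is not known. Of the 10 named genes, 7 kept the sign on all 8. Ppp2r1b and Pde2a kept it on 7, and Pramel6 on all 7 days with a value. The pair difference of Serac1 was -2.12 at day 7 and -2.52 at day 14.

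**Figure D4:**
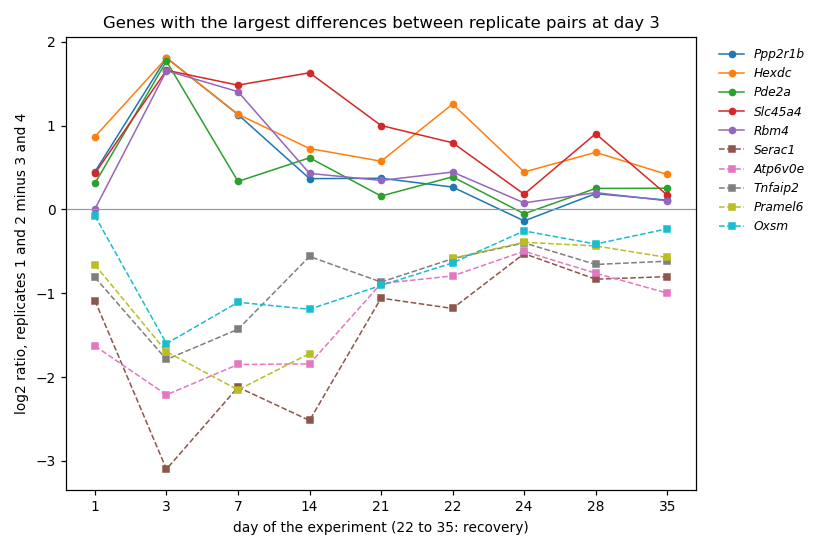
Difference in log2 ratio, replicates 1 and 2 minus replicates 3 and 4, on each of 9 days for the 10 named genes with the largest differences at day 3. Solid lines with circles are genes higher in the first pair, dashed lines with squares genes lower in it; Serac1 reaches -3.10 at day 3, and most genes keep their side of 0.

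Few features set day 3 apart from the other hypoxia days. Against the mean of days 1, 7, 14 and 21, 25 of 11517 features passed (0.217 percent), 15 higher and 10 lower, and 749 did at an unadjusted p under 0.05. With the replicate number as a block, which takes up differences between replicates that recur across days, 63 passed. Of the 25, 17 were named genes, and 23 had also passed against control. At 18 of the 25 the day 3 mean lay outside the means of the other 4 hypoxia days, and at 17 outside those of all 8 other days.

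Ltf, Mgp and Col3a1 were higher at day 3 than on the other hypoxia days, and kept this under every alternative run. Ltf exceeded their mean by 1.04 ± 0.12 (SE, adjusted p = 3.2e-06): its day means were 0.64, 1.52, 1.23, 0.11 and -0.08 on days 1, 3, 7, 14 and 21. Day 7 is its nearest neighbour, and arrays of day 7 reached 1.66, so the arrays of both days overlap. Mgp exceeded the mean by 0.63 ± 0.08 (SE, adjusted p = 1.9e-05), with day means of 0.68, 1.29, 0.96, 0.26 and 0.72. Its lowest day 3 array, at 1.18, lay above the highest array of any other day, at 1.17. Col3a1 exceeded the mean by 0.50 ± 0.06 (SE, adjusted p = 6.5e-06), with day means of 0.15, 1.11, 0.65, 1.04 and 0.62. Its day 14 arrays reached 1.19, above those of day 3.

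Mt2, Rsph1, Igfbp4, Nrep and Stab1 were higher than the hypoxia mean as well, and each lost its call under at least 1 alternative. Rsph1 exceeded it by 0.52 ± 0.09, and its day means elsewhere lay between -0.20 and 0.40. Stab1, a scavenger receptor of endothelium and macrophages, exceeded it by 0.33 ± 0.07 (adjusted p = 0.049). Nrep exceeded it by 0.39 ± 0.07, and lost its call without day 1, where it stood at -0.78 (adjusted p = 0.73). Igfbp4 stood at 0.03 at day 3 and between -0.53 and -0.26 on the other hypoxia days, and did not pass against control. Its pairs lay on opposite sides of 0, at 0.20 and 0.26 against -0.21 and -0.15, a difference of 0.41 (adjusted p = 0.026). Arrays of the other hypoxia days reached -0.12, so the second pair overlapped them. Fblim1, an adaptor of focal adhesions named after its values were seen, had day 3 arrays from 0.35 to 0.41, above the highest array of any other day at 0.29. Mt2 exceeded the mean by 0.54 ± 0.12 (adjusted p = 0.030), with a day 14 mean of -2.16. Without day 14 the difference was -0.19 (adjusted p = 0.73), so its direction turned.

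S100g, a calcium-binding protein also called calbindin-D9k, was lower at day 3 than on the other hypoxia days under every alternative run. Its arrays stood at -0.59, -0.74, -0.46 and -0.52, all below the lowest array of any other day at -0.13. The difference was -0.68 ± 0.10 (SE, adjusted p = 2.0e-04), and the means of the other 8 days lay between -0.05 and 0.38. S100a9 was lower by -1.40 ± 0.11 (adjusted p = 3.3e-09), but its day means fell into separate levels: 0.31 and -0.19 on days 1 and 7, and -2.72 and -2.32 on days 14 and 21. Day 3, at -2.63, lay with the latter, and with arrays scaled to a common spread the contrast did not pass (-0.96, adjusted p = 0.20).

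Sgk1, a kinase that glucocorticoids and salt induce, stood at -0.06, -0.02, 0.15 and 0.06 at day 3, and its means on the other hypoxia days lay between 0.22 and 0.83. The difference was -0.45 ± 0.06 (adjusted p = 5.0e-05). Lpl was lower by -0.48 ± 0.09 (adjusted p = 0.010), with day means of -0.52, -0.99, -0.32, -0.93 and -0.26, so days 3 and 14 lay close together. Fos was lower by -0.44 ± 0.08, and its hypoxia days alternated: 0.31, -0.24, 0.50, -0.33 and 0.33. Cytip, an adaptor of leukocytes, was lower by -0.43 ± 0.08, Errfi1, a feedback inhibitor of the epidermal growth factor receptor, by -0.32 ± 0.06, and Hbb-b1 by -0.42 ± 0.09. The means of Errfi1 on days 1, 3, 7, 14 and 21 were 0.31, -0.35, -0.31, -0.41 and 0.31. Those of Hbb-b1 were 1.26, 0.65, 1.63, 0.88 and 0.52, so neither gene was lowest at day 3. With the random block, 6 of 16 of these named genes kept their call: Ltf, Mgp, Col3a1, S100a9, S100g and Sgk1.

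**Figure D5:**
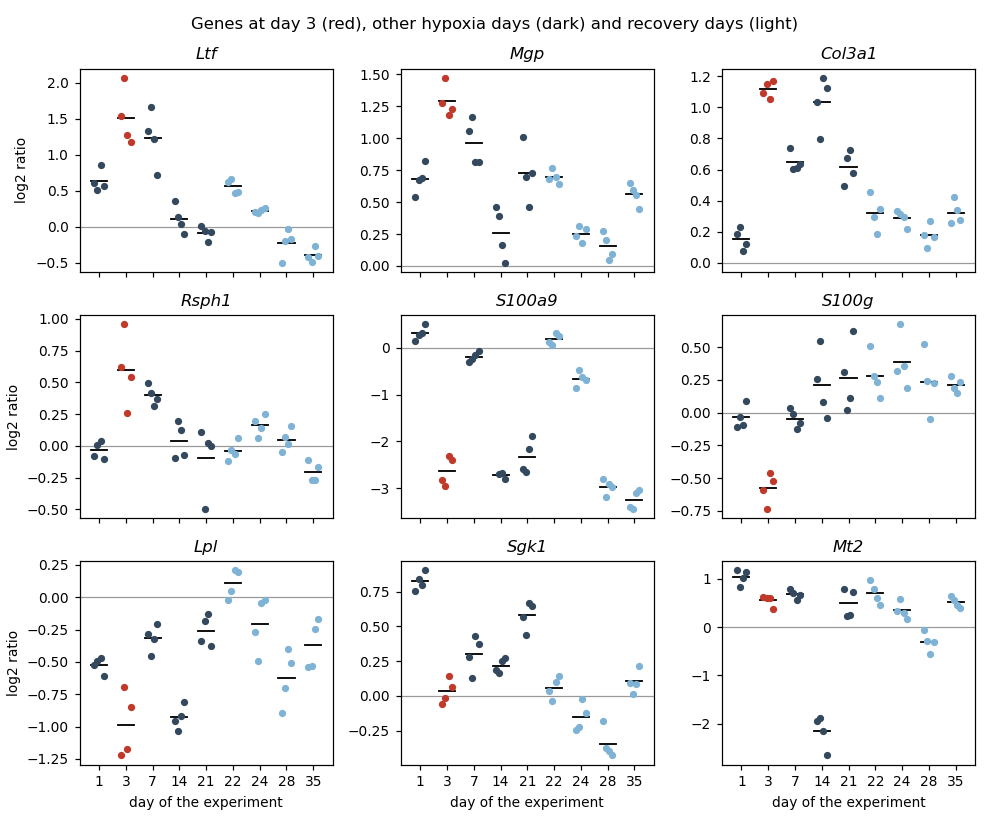
Log2 ratios on each of 9 days for 9 genes that passed against the mean of the other hypoxia days, picked after their values were seen; points are the 4 arrays of a day and bars their mean. Day 3 of S100g lies below all arrays of the other days, and Mt2 at day 14 stands at -2.16.

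Of 17 collagen genes tested against the other hypoxia days 1 passed, Col3a1, and the median difference of the list was 0.14, beside 0.0012 over all features. The median difference of 46 mitosis genes was 0.13. The mitosis median was 0.05, 0.29, 0.32, 0.08 and 0.11 on days 1, 3, 7, 14 and 21, and that of collagens was 0.09, 0.45, 0.47, 0.39 and 0.28. The glucocorticoid median alternated, at 0.31, -0.20, 0.24, -0.41 and 0.12. Of its 14 members, Sgk1 and Errfi1 were below the mean of the other hypoxia days at day 3 and Mt2 above it.

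When day 3 had to differ from each of the other 8 days, 1 of 11517 features passed (0.00868 percent), and 14 did at an unadjusted p under 0.05. It was a spot that the annotation lists under both Xist and Tsix and which is therefore assigned to neither gene. Xist is the RNA that silences an X chromosome in female cells, and Tsix is its antisense partner. The spot stood at 2.89, 3.12, 2.60 and 1.53 at day 3, a mean of 2.54 ± 0.71 (adjusted p against control = 3.4e-11). Its means on the other days lay between -0.22 and 0.35, and the highest array of another day was at 1.56. Both replicate pairs passed against control. With replicates 1 and 2, or 3 and 4, of every day alone, no feature stood apart from every other day by limma.

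The pair of spots listed under both Xist and Map1lc3b stood at 0.44 and -0.02. The first passed as higher (adjusted p = 0.0027) and was positive on all 4 arrays, and the second did not pass (adjusted p = 0.89). Eif2s3y, a gene of the Y chromosome, stood at -0.11, -0.68, -0.14 and -0.19, a mean of -0.28 ± 0.27 (adjusted p = 0.012). It did not pass in replicates 3 and 4 (adjusted p = 0.20) and was not apart from the other hypoxia days (0.04, adjusted p = 0.99). Among genes known to escape silencing, Ddx3x stood at -0.42 and Kdm6a at -0.25, and both passed as lower. Eif2s3x at -0.18 and Kdm5c at -0.10 did not pass. Ddx3x and Kdm6a were lower still at day 7, at -0.65 and -0.57. Of 215 measured genes on the X chromosome, 22 rose and 29 fell, with a median of -0.04. Over all features 13.3 percent were higher and 9.96 percent lower. The labels give no sex, and the part of the pools' composition in the other results was not tested.

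The named genes nearest to standing apart from every other day were S100g, whose closest difference was -0.53, and Mgp, whose closest difference was 0.33. Neither passed after adjustment in limma (adjusted p = 1 for each). Ccno, a cyclin of ciliated cell formation, stood at 0.79 at day 3 against at most 0.26 on any other day, and Tubb5, a beta tubulin, at 0.39 against at most 0.13. They were named after their values were seen.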

How the data were processed

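RNA of whole mouse lung was compared on 36 2-colour cDNA arrays, 4 for each of 9 days. The deposited values are log2 ratios: per the labels, amino-allyl cDNA was coupled to Cy5 and Cy3, images were read with GenePix, background was corrected, marked spots were removed and ratios of median intensities were lowess normalized by the authors. The share removed differs between arrays, and lowess assumes that most ratios centre on 0.

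Of 15388 spots, 9598 had 1 gene symbol, 514 several and 5276 none; 9510 of the first matched RefSeq (GRCm38.p6). Spots of 1 symbol were averaged by gene, which gave 6971 genes, 1880 of them with more than 1 spot, and 12761 features with the unnamed spots. A feature needed a value on 3 of the 4 day 3 arrays. limma 3.58.1 in R 4.3.3 (lmFit, eBayes) fitted all 36 arrays with 1 mean per day, or per day and replicate pair, and tests were two-sided with Benjamini-Hochberg adjustment over all features at 0.05. Day 3 stood apart from every day when each of its differences had one sign, taking the largest p. Named genes had 1 symbol: the 15 highest and 15 lowest means with one sign on all arrays, the 5 largest pair differences and the 8 largest differences from other hypoxia days in each direction, up to 4 members per gene list by p, and chosen genes. Members, lists and tests were chosen with earlier results of these data known. Alternatives covered centring, scaling, spot averaging, blocks, robust eBayes, the arrays used and each replicate or day left out. The tests were checked on simulated data.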

Additional observations from a re-analysis of the deposited data

Results flagged for a closer look

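Among 133 named genes tested for 1 array far from the other 3 at day 3, 6 had such an array, and chance alone marks about 1 in 20 groups. Gyg stood at 0.72 in replicate 3, with the next value at 0.84. Mt2 stood at 0.37 in replicate 4 and next at 0.60, and Uhrf1 at 0.49 in replicate 4 and next at 0.34. Cdk1 stood at 1.07 in replicate 1 and next at 0.74. Fcgr3 stood at -0.28 in replicate 2 and next at -0.49, and Stat3 at 0.43 in replicate 2 and next at 0.18.

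The log2 ratio at day 3 differed by test from its mean on the other hypoxia days for 16 genes chosen by size. As far as the labels say, each day had 1 hypoxic and 1 control pool of its own. The test therefore covers spread among arrays and not among mice, and a difference between days may come from either pool. Above the mean of the other hypoxia days were Ltf by 1.04, Mgp by 0.63, Mt2 by 0.54, Rsph1 by 0.52, Col3a1 by 0.50, Igfbp4 by 0.43, Nrep by 0.39 and Stab1 by 0.33. For genes below that mean the differences were -1.40 for S100a9, -0.68 for S100g, -0.48 for Lpl, -0.45 for Sgk1, -0.44 for Fos, -0.43 for Cytip, -0.42 for Hbb-b1 and -0.32 for Errfi1. Day 3 was not the highest hypoxia day for Mt2 and Nrep, nor the lowest for S100a9, Fos, Hbb-b1 and Errfi1. Without day 14 the difference of Mt2 turned to -0.19. The spot listed under both Xist and Tsix differed from every other day, by 2.18 from the closest.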

How the results depend on the processing

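The 2842 features that passed at day 3 became 1862 with arrays scaled to one spread, 1532 with the replicate pair as a random block, 103 from the day 3 arrays alone and 4306 from replicates 3 and 4 of every day; 1124 passed in each pair, a count chosen after the data were seen. Leaving out 1 array gave 2157 to 2517. Replicates 1 and 2 alone gave 2566 features when scaled and 1186 to 3813 with 1 array, the fewest without replicate 2. Replicates 3 and 4 alone gave 1443 to 2579 with 1 array, the fewest without replicate 3. A lone array was assumed to vary like the other groups. The pair difference gave 1849 features when scaled, 2146 from hypoxia days alone and 585 to 3815 with 1 array left out, with 585 without replicate 2 and 1204 without replicate 3. The 25 features against other hypoxia days became 10 when scaled, 38 with each spot on its own, 9 with the random block, 12 from hypoxia days alone, 14 from replicates 1 and 2 and 62 from replicates 3 and 4, and 12 to 31 with 1 array left out, 12 without replicate 1. Apart from every day stood 3 features without day 7, 2 without day 14, and 0 by limma in replicates 1 and 2 or 3 and 4 alone. Directions turned for Ptpn6 (0.17) and Slc2a1 (0.030) in replicates 1 and 2, for Arntl (-0.25) and Hif1a (0.043) in replicates 3 and 4, and for Mt2 without day 14 (-0.19). The causes were not tested. With the replicate number as a block, 3695 features passed at day 3 and 63 against other hypoxia days. Same-numbered arrays of different days had deviations that correlated between -0.12 and 0.67, 127 of 144 over 0.1, so arrays shared structure across days. Day 3 arrays had median correlations of 0.36 to 0.43 with arrays of their own replicate pair on other days. With arrays of the other pair the medians were -0.46 to -0.34. Deviations were taken from the mean of the 4 arrays of a day, so these negative values largely follow from the positive ones. The tests with 1 mean per day did not model the structure shared across days and left it in the spread.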
